A study of Mus musculus with 12 samples.

Results

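Rhag, Slc4a1, Alas2, Vpreb1, Igll1, Vpreb3, Cd79a and Igj are 8 genes of red cell and B cell precursors, and all 8 were found among the 16389 genes of a table of sorted spinal cord cells. They were chosen from the measured values, because earlier comparisons of these libraries with the NI controls had shown them lower after injury. Their differences from NI are therefore a description here, with no test. Tests were kept to comparisons between injured groups and to genes that are not members. The choice also used the injured values and favoured genes low in them, so comparisons between injured groups are not wholly free of it. The lists of those genes were drawn up with earlier results of these data known, so their comparisons with NI are not independent of the choice.

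The cells came from adult male Aldh1l1-EGFP mice on a Swiss Webster background, in which the Aldh1l1 promoter drives eGFP in astrocytes. Living eGFP+ cells were sorted from a thoracic segment around the lesion after perfusion of the animals. The groups were full transection (FT) at 2 weeks with 3 libraries, FT at 1 week with 1, hemisection (HS) at 2 weeks with 2, HS at 1 week with 3, and no injury (NI) with 3. All groups carried the transgene. The study counts more mice than libraries in every group, so the libraries may pool animals, and the FT 1 week group had no replicate.

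Red cells arise in the marrow from precursors that build up heme and a membrane skeleton, and these cells switch on Alas2, Slc4a1 and Rhag as they mature. B cell precursors pair a newly made heavy chain with a surrogate light chain, built from the products of Vpreb1 and Igll1, and signal through Cd79a and Cd79b. The values are normalized counts, in which the authors divided the reads of each library by 1 factor.

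The libraries held 8270643 to 15562378 reads, and 1 read was worth 0.0612 to 0.134 normalized counts. Of the 96 member and library pairs, 41 had under 10 reads and 9 had none. A count of 0 allows up to 3 reads, which is 0.213 to 0.403 normalized counts in the libraries concerned, and this limit covers counting error only. The 12 astrocyte markers were detected in the table, and they summed to 1396 to 11286 normalized counts in the injured libraries and to 1582 to 6347 in NI. The 10 oligodendrocyte markers summed to 54275 to 110079 in the injured libraries and to 53143 to 89591 in NI, so that these markers were present in every library of cells labelled as astrocytes. The libraries NI replicate 2 and NI replicate 3 stood apart in neutrophil genes, as given below with the members. They also differed from NI replicate 1 in other lists. Microglia and macrophage markers summed to 4927 and 6488 in NI replicates 2 and 3, against 666 in NI replicate 1. Pericyte and fibroblast markers summed to 643 and 459 against 7005, and cell cycle genes to 183 and 295 against 55.3. Astrocyte markers summed to 5361 and 1582 against 6347, and HS 1 week replicate 3 was the lowest of the 12 libraries at 1396. In bulk RNA, fewer cells of a type and less RNA per cell cannot be told apart.

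Promoters of 4 members are shown because the results turn on how these genes differ among libraries. Igll1, Vpreb1 and Vpreb3 were highest in the same libraries, and Alas2 was not. Each sequence is the 250 bases before the start site in RefSeq (GRCm38.p6), 5′ to 3′ on the gene's strand, and a promoter was found for 7 of the 8 members. The capitals mark matches to 9 motifs searched on both strands, none of which overlapped another here. The window of Alas2 lies at chrX:150547167-150547416 on the plus strand, Igll1 at chr16:16863986-16864235 on the minus strand, Vpreb1 at chr16:16869256-16869505 on the minus strand and Vpreb3 at chr10:75948050-75948299 on the plus strand. The windows of Vpreb1 and Vpreb3 fall inside the longer spans that GENCODE gives these genes.
Alas2: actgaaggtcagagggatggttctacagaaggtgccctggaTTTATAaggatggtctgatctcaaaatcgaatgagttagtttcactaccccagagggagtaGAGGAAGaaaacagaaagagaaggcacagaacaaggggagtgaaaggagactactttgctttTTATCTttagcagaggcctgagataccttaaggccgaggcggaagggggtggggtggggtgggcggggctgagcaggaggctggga
Igll1: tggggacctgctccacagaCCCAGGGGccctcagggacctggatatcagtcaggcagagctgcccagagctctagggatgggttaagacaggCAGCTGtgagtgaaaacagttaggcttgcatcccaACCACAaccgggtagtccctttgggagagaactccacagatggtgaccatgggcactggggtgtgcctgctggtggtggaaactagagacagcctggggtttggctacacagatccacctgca
Vpreb1: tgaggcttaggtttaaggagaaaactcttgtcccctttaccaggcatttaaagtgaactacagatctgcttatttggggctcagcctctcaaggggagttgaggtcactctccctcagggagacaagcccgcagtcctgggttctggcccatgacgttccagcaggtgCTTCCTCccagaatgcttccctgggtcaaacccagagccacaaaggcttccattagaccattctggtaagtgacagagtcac
Vpreb3: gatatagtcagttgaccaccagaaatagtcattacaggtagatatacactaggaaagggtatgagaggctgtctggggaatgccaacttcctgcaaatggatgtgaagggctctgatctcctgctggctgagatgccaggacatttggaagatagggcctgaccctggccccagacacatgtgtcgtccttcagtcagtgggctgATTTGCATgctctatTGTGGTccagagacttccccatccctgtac

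For red cell factors, the letters AGATAA bound by the erythroid GATA proteins were searched and were present in 9.99% of the 32851 promoters of this length. The KLF1 letters CCACACCC were present in 3.20%. For B cell factors, the EBF1 letters CCCNNGGG were present in 11.8%, the octamer ATTTGCAT in 1.60%, and the Pax5 core letters GCGTGAC in 1.78%. The E-box letters CAGCTG were present in 13.0% of promoters. The PU.1 letters GAGGAAG were present in 10.6% of promoters. The letters TATAAA, found near the start of many genes, were present in 12.4% of promoters. The Runx letters TGTGGT were present in 14.0% of promoters. Alas2 held a GATA match at bases -86 to -81, counted from the start site, a PU.1 match at -148 to -142 and a TATAAA match on the other strand at -209 to -204. Igll1 held an EBF1 match at -231 to -224, an E-box match at -158 to -153 and a Runx match at -123 to -118. Vpreb1 held a PU.1 match at -82 to -76. Vpreb3 held the octamer at -45 to -38 and a Runx match at -30 to -25. Rhag held a Runx match at -212 to -207, and Cd79a and Igj held none of the 9. These matches are letters in a window and not measured binding. Only the letters given were searched, so sites with variant letters were missed and a lack of matches does not mean a lack of sites.

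Rhag, on chr17:40811126-40840754 (GRCm38), encodes a glycoprotein of the red cell Rh membrane complex. It had 0.876, 0.117 and 0.593 normalized counts in FT 2 weeks, 0 in FT 1 week, 0.285 and 0.586 in HS 2 weeks, and 0.485, 0.173 and 0.612 in HS 1 week, against 0.786, 2.62 and 3.60 in NI. NI replicates 2 and 3 were the 2 highest libraries, and NI replicate 1 lay below the highest FT 2 weeks library. With no read in FT 1 week, Rhag was at least 5.79-fold lower there than the NI mean, taking 3 reads as the limit. The bound was 4.22-fold without NI replicate 3. It takes the NI mean as exact, and NI replicate 1 alone, at 0.786, lay nearer to the limit of 0.403. The log2 differences from NI were -1.05 ± 0.33 in FT 2 weeks, -1.63 ± 0.47 in FT 1 week, -1.12 ± 0.37 in HS 2 weeks and -1.13 ± 0.33 in HS 1 week (SE, on log2 of the normalized counts plus 1, a scale that understates the change of low genes).

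Slc4a1, the red cell anion exchanger known as band 3, lies on chr11:102348824-102366203. It had 1.31, 1.17 and 2.52 normalized counts in FT 2 weeks, 0.672 in FT 1 week, 1.14 and 1.03 in HS 2 weeks, and 1.45, 0.954 and 1.35 in HS 1 week, against 1.41, 4.60 and 5.40 in NI. NI replicate 1 again lay within the injured libraries, and NI replicates 2 and 3 lay above all of them. The log2 differences from NI were -0.76 ± 0.35 in FT 2 weeks, -1.40 ± 0.49 in FT 1 week, -1.09 ± 0.39 in HS 2 weeks and -0.98 ± 0.35 in HS 1 week (SE).

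Alas2, the erythroid form of the first enzyme of heme synthesis, lies on chrX:150547375-150570638. It had 5.70, 13.2 and 19.2 normalized counts in FT 2 weeks, 5.51 in FT 1 week, 2.35 and 5.49 in HS 2 weeks, and 9.94, 7.29 and 3.18 in HS 1 week, against 12.4, 13.6 and 11.7 in NI. Its highest library was FT 2 weeks replicate 3, and the NI libraries were close to one another, which no other member showed. The log2 differences from NI were -0.13 ± 0.46 in FT 2 weeks, -1.06 ± 0.65 in FT 1 week, -1.54 ± 0.52 in HS 2 weeks and -0.91 ± 0.46 in HS 1 week (SE). The value in FT 2 weeks turned positive with every count test, at 0.01 with both edgeR tests and 0.04 with DESeq2, and it was 0.32 without FT 2 weeks replicate 1.

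Vpreb1, a chain of the surrogate light chain, lies on chr16:16868403-16870843, and 4417 bases separate it from Igll1 at chr16:16860671-16863985 on the same strand. Vpreb1 has a near-identical copy in the mouse genome, so its reads are uncertain. It had 0, 0 and 0 normalized counts in FT 2 weeks, 0.269 in FT 1 week, 0 and 0.0733 in HS 2 weeks, and 0.121, 0.173 and 0.856 in HS 1 week, against 0.393, 3.64 and 4.17 in NI. With 3 reads per library as the limit, it was at least 10.4-fold lower in FT 2 weeks than the NI mean, and at least 7.64-fold lower without NI replicate 3. That mean rests mostly on NI replicates 2 and 3, and NI replicate 1 alone, at 0.393, lay near the mean limit of 0.264. The highest injured library was HS 1 week replicate 3, which lay above NI replicate 1.

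Igll1, the other chain of the surrogate light chain, had 0.146, 0.117 and 0.297 normalized counts in FT 2 weeks, 0.269 in FT 1 week, 0.356 and 0.293 in HS 2 weeks, and 0, 0 and 1.16 in HS 1 week, against 0.314, 5.30 and 15.2 in NI. NI replicate 1 lay between the HS 2 weeks libraries, while NI replicate 3 alone held 211 of the 335 reads of the gene. Its log2 differences from NI were -2.11 ± 0.70 in FT 2 weeks, -2.01 ± 0.99 in FT 1 week, -1.95 ± 0.78 in HS 2 weeks and -1.98 ± 0.70 in HS 1 week (SE), and without NI replicate 3 that of FT 2 weeks was -1.28.

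Vpreb3, a chaperone-like protein of B cell precursors, lies on chr10:75943057-75949657. It had 0.365, 0.117 and 0.519 normalized counts in FT 2 weeks, 0 in FT 1 week, 0.285 and 0 in HS 2 weeks, and 0.242, 0.520 and 1.65 in HS 1 week, against 1.18, 6.89 and 12.9 in NI. With no read in FT 1 week, it was at least 17.3-fold lower there than the NI mean, and at least 10.02-fold lower without NI replicate 3. These bounds take the NI mean as exact, and NI replicate 1 alone, at 1.18, lay nearer to the limit of 0.403. HS 1 week replicate 3 was the only injured library above NI replicate 1.

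Cd79a, the signaling chain of the B cell receptor complex, lies on chr7:24897381-24902197. It had 0.0730, 0.816 and 0.741 normalized counts in FT 2 weeks, 0.537 in FT 1 week, 0.285 and 0.586 in HS 2 weeks, and 0.606, 0.694 and 2.88 in HS 1 week, against 1.81, 11.9 and 12.6 in NI. Again HS 1 week replicate 3 was the single injured library above NI replicate 1. The log2 differences from NI of Vpreb1, Vpreb3 and Cd79a lay between -2.63 and -1.26 over the 4 injured groups.

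Igj, named Jchain in the annotation and placed on chr5:88519809-88527891, encodes the joining chain of polymeric antibodies and is best known from antibody-secreting cells. It had 2.26, 2.21 and 3.41 normalized counts in FT 2 weeks, 3.09 in FT 1 week, 0.996 and 1.68 in HS 2 weeks, and 1.45, 1.56 and 2.88 in HS 1 week, against 2.67, 4.85 and 28.9 in NI. NI replicate 3 stood far above every other library, and without it the log2 difference of FT 2 weeks from NI was -0.37, against -1.26 ± 0.62 (SE) with it. Plots of the 8 members show the same 2 NI libraries on top in 7 of them.

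**Figure D1:**
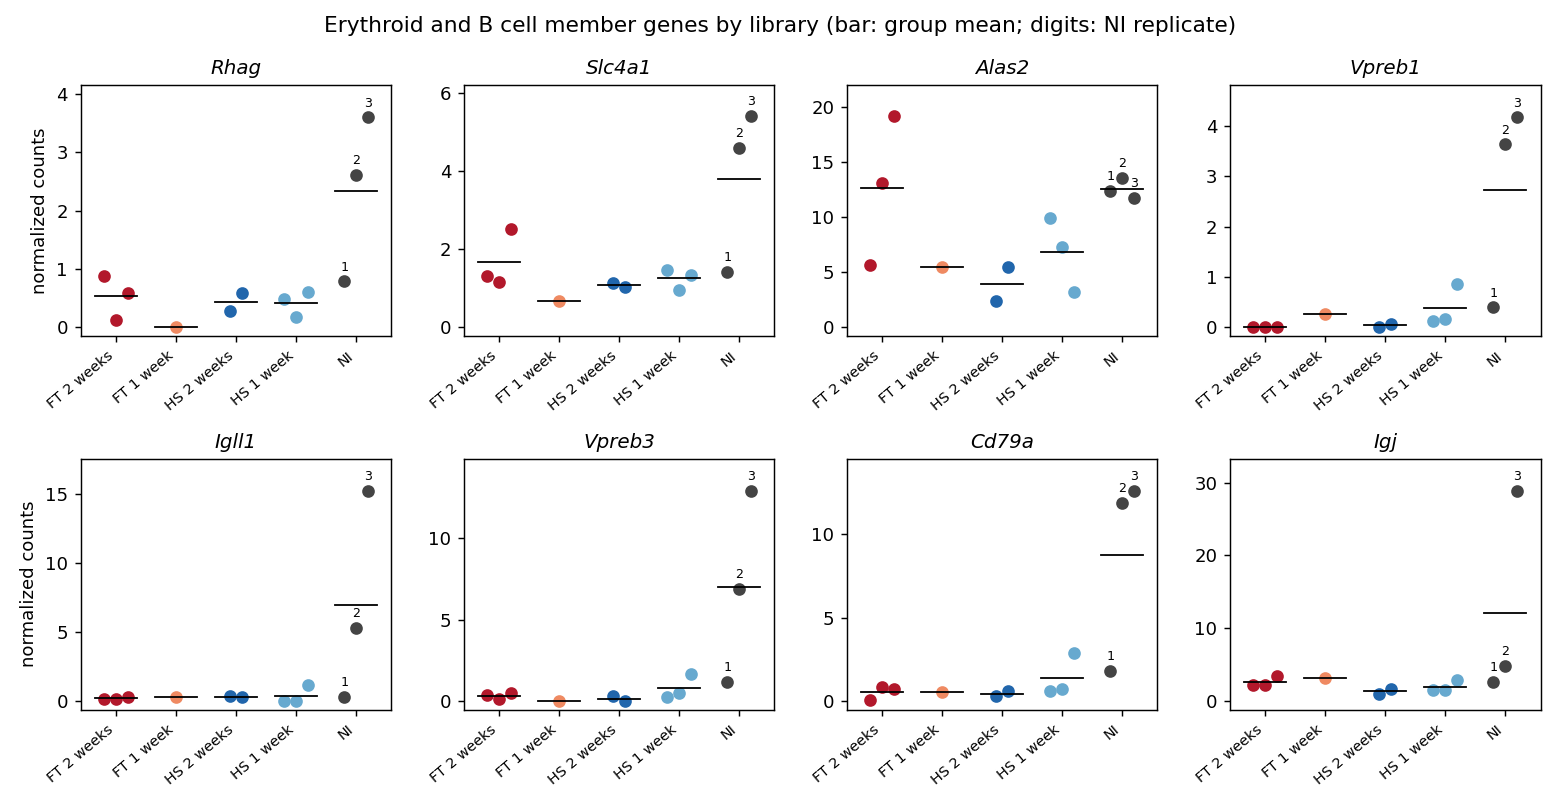
Normalized counts of each member (vertical axis) in the 12 libraries, by group on the horizontal axis; each point is a library, the bar is the group mean, and digits give the NI replicate. NI replicates 2 and 3 were the 2 highest libraries for every member but Alas2. NI replicate 1 lay within the range of the injured libraries for each member, but above 6 to 8 of the 9 injured libraries.

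Over the 8 members, the median log2 difference from NI was -1.48 in FT 2 weeks, -1.52 in FT 1 week, -1.77 in HS 2 weeks and -1.42 in HS 1 week, and all 8 were below 0 in each. With the members that had no read set at their limit, the medians of FT 2 weeks and FT 1 week were -1.31 and -1.37. The median over all genes lay between -0.03 and -0.01. All libraries of the injured group lay below every NI library for 4 members in FT 2 weeks, where 7.99% of all genes did so, for 7 in FT 1 week (30.1%), for 7 in HS 2 weeks (11.6%) and for 2 in HS 1 week (5.02%). These counts use the contrast that chose the members, so nothing is read from them.

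The highest values of most members lay in 2 NI libraries. NI replicates 2 and 3 were the 2 highest of the 12 libraries for 7 of the 8 members, whereas 6.93% of all genes had that order. This order was noticed after the values were seen, and the members had been chosen with NI high, so no test is given. These 2 libraries held 87.4% of the normalized counts of Igll1, 80.6% of Vpreb1, 80.2% of Vpreb3, 73.1% of Cd79a, 60.3% of Igj, 57.9% of Rhag, 43.5% of Slc4a1 and 23.1% of Alas2, against a median of 16.6% over all genes. HS 1 week replicate 3 came next for 4 of the 5 B cell members. Across the 12 libraries, Pearson's r between pairs of B cell members was 0.80 to 0.98 and that of Rhag with Slc4a1 was 0.93, while Alas2 had 0.23 to 0.54 with the others. These are descriptions over libraries that share the sort and the sequencing, and in which NI replicates 2 and 3 were mostly the highest.

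Neutrophil genes were highest in the same libraries as most members. Their list was drawn up with earlier results of these data known, and most of its genes were highest in the same NI libraries. The counts of calls below are therefore a description and not separate support from each gene. The 18 measured neutrophil lineage genes, with 1 listed gene not analysed here, summed to 95.0 to 166.6 normalized counts in FT 2 weeks, 85.4 in FT 1 week, 109.4 to 141.4 in HS 2 weeks, 141.0 to 3203 in HS 1 week and 828.2 to 11660 in NI. NI replicate 3, NI replicate 2 and HS 1 week replicate 3 were at 11660, 6832 and 3203, and 17 of the 18 genes had NI replicates 2 and 3 as their 2 highest libraries. By limma-trend 0 of the 18 were called against NI in any injured group, although 18, 13, 18 and 13 passed an unadjusted p under 0.05 in FT 2 weeks, FT 1 week, HS 2 weeks and HS 1 week, against 10.8%, 11.2%, 7.49% and 7.66% of all genes. The edgeR quasi-likelihood test also called 0 in each. In the same order of groups, the edgeR likelihood ratio test called 16, 7, 11 and 0 of the 18, all lower, beside 2.22%, 1.81%, 0.757% and 0.372% of all genes. DESeq2 called 14, 7, 9 and 0, all lower, beside 2.07%, 2.26%, 0.757% and 0.506%. Without NI replicate 1, limma-trend called 16, 5, 2 and 0, all lower, beside 2.79%, 0.909%, 0.22% and 0.0671% of all genes, and without HS 1 week replicate 3 it called 3 in FT 2 weeks and 4 in FT 1 week, all lower, beside 0.134% and 0.793%. S100a8, a calcium-binding protein abundant in neutrophils, was at 9.71, 23.1 and 38.0 in FT 2 weeks, 9.54 in FT 1 week, 18.1 and 25.9 in HS 2 weeks, and 26.1, 59.4 and 579 in HS 1 week, against 173, 1573 and 3291 in NI. The summed B cell members were at 1.92 to 9.42 in the injured libraries, of which HS 1 week replicate 3 was the highest, and at 6.36 to 73.7 in NI. Pearson's r between the 2 sums was 0.93 over 12 libraries, that of Rhag and Slc4a1 with the neutrophil sum was 0.81 and that of Alas2 was 0.20, as descriptions. The part of other blood or marrow cells in the differences of the members was not tested.

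**Figure D2:**
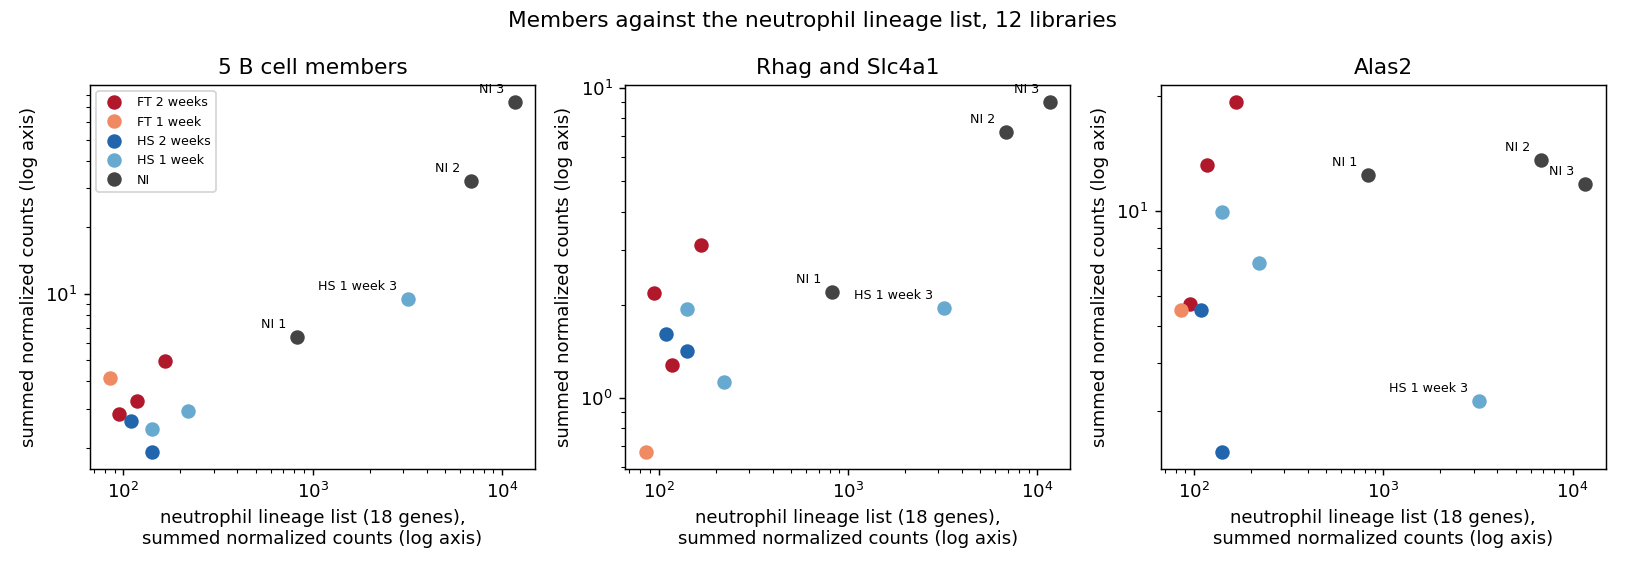
Summed normalized counts of the 5 B cell members, of Rhag and Slc4a1, and of Alas2 (vertical axes) against those of the neutrophil lineage list (horizontal axis) in 12 libraries, all on log axes; each point is a library. NI replicates 2 and 3 lie at the top right for the B cell members and for Rhag and Slc4a1, but not apart for Alas2.

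The genes most like the members were looked for among 14912 genes with a mean of at least 1 normalized count. Closest to the mean of the B cell members were Cebpe, a neutrophil transcription factor (r = 0.98), Ly6d (0.98), Dntt, the enzyme that adds bases at antigen receptor junctions (0.97), Ceacam10 (0.97) and Car1, a carbonic anhydrase of red cell precursors (0.97). Car1 was at 0.146 to 6.73 normalized counts in the injured libraries, highest in HS 1 week replicate 3, and at 0.707, 12.8 and 40.6 in NI. Closest to the mean of the erythroid members were Ddx55 (0.94), S100a11, Hmgn5, Dnajc25 and Sclt1 (0.87 to 0.88). That mean includes Alas2, which had r of only 0.36 with Rhag and 0.54 with Slc4a1, so it does not stand for 1 shared pattern. Ddx55 varied little, at 20.1 to 24.9 normalized counts in the injured libraries and 25.1, 27.7 and 27.9 in NI.

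Other erythroid and B lineage genes were taken from 2 lists that hold no member. These lists too were drawn up with earlier results of these data known, so their counts against NI are a description. Of 31 erythroid genes, 24 were measured, the globin genes being among those not analysed here, and of 22 B lineage genes 18 were measured. By limma-trend, with a change of at least 2-fold and an adjusted p under 0.05, 0 of these 42 genes were called in FT 2 weeks against NI, where 0.0427% of all genes were. None was called in FT 1 week (0.452%), HS 2 weeks (0.0122%) or HS 1 week (0.0061%) either. At an unadjusted p under 0.05, 13 of 42 passed in FT 2 weeks, 8 in FT 1 week, 14 in HS 2 weeks and 14 in HS 1 week, against 10.8%, 11.2%, 7.49% and 7.66% of all genes.

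The count tools differed. The edgeR quasi-likelihood test called 0 of the 42 in all 4 comparisons, and 0.0244%, 0.427%, 0.0122% and 0.0061% of all genes for FT 2 weeks, FT 1 week, HS 2 weeks and HS 1 week. The edgeR likelihood ratio test called 6 in FT 2 weeks, all lower and Car1, Dntt and Kel among them, 2 in FT 1 week, both higher (Cd22 and Cd72), 3 in HS 2 weeks (Cd22 higher, Fcrla and Rhd lower) and 0 in HS 1 week, beside 2.22%, 1.81%, 0.757% and 0.372% of all genes. DESeq2 called 4 in FT 2 weeks, all lower, and 3 in FT 1 week (Cd22 and Cd72 higher, Dntt lower). It called 2 in HS 2 weeks (Cd22 higher, Dntt lower) and 0 in HS 1 week. In the same order, 2.07%, 2.26%, 0.757% and 0.506% of all genes were called. Without NI replicate 1, limma-trend called 6 in FT 2 weeks, all lower and again with Car1, Dntt and Kel among them, and it called 1 in FT 1 week, 2 in HS 2 weeks and 0 in HS 1 week. The calls over all genes were also more numerous without it, at 458, 149, 36 and 11 of 16387, or 2.79%, 0.909%, 0.22% and 0.0671%, in FT 2 weeks, FT 1 week, HS 2 weeks and HS 1 week, against 7, 74, 2 and 1 of 16388 with it. Most of these genes were named after their values were seen.

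The lists were not uniform. Among the erythroid genes, those with the highest mean normalized counts, Tfrc, the transferrin receptor, and Fech, the last enzyme of heme synthesis, had 13.9% and 11.8% of their counts in NI replicates 2 and 3, against 80.6% for Car1. Dntt had 77.6% and Cd79b, the partner of Cd79a, 58.3%. Blnk, Cd22 and Cd72, the genes of the B lineage list with the highest mean normalized counts and also expressed outside B cells, had 19.1%, 3.34% and 5.59%. Cd72 was highest in FT 1 week at 97.8 normalized counts, where the microglia and macrophage markers summed to 8032. Those markers summed higher in HS 1 week replicate 3 (11041) and HS 2 weeks replicate 1 (10067), where Cd72 was at 34.1 and 37.6. A relation of Cd72 to these markers was not tested. NI replicates 2 and 3 were the 2 highest libraries for 9 of 24 erythroid, 8 of 18 B lineage, 1 of 7 plasma cell, 2 of 8 megakaryocyte and platelet, 1 of 8 T and NK cell and 6 of 13 cell cycle genes, and for 0 of the astrocyte, oligodendrocyte, microglia and macrophage, and pericyte and fibroblast markers.

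**Figure D3:**
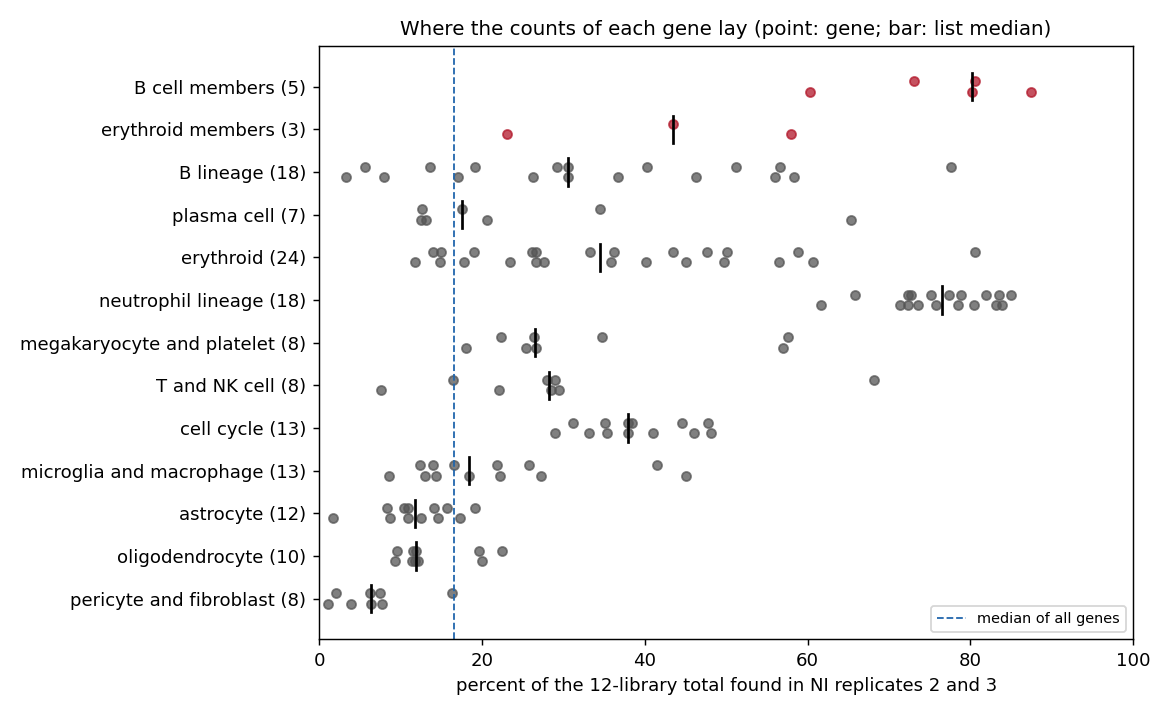
Percent of the 12-library total of normalized counts found in NI replicates 2 and 3 (horizontal axis) for each gene (point), by list, with the list median as a bar and the median of all genes, 16.6%, as a dashed line. The B cell members have a median of 80.2% and the neutrophil lineage list 76.5%, against 11.7% for astrocyte markers.

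Between the injured groups, no member was called, which says little where few or no genes of the whole set were called either. By limma-trend, 0 of 8 members passed in FT 2 weeks against FT 1 week, where 0.384% of all genes did, in HS 2 weeks against HS 1 week (0%), in FT 2 weeks against HS 2 weeks (0%) and in FT 1 week against HS 1 week (0.348%). At an unadjusted p under 0.05 the counts were 0, 0, 1 and 0, beside 9.17%, 1.62%, 2.26% and 5.64% of all genes. The quasi-likelihood test called 0 in all 4 (0.244%, 0%, 0% and 0.226% of all genes) with 0, 0, 1 and 0 unadjusted. The likelihood ratio test called 0 (1.31%, 0%, 0% and 0.696%) with 2, 2, 1 and 2, and DESeq2 0 (1.34%, 0%, 0% and 0.757%) with 0, 1, 1 and 1. Over all 16388 genes, the unadjusted counts in the same order were 1358, 297, 409 and 911 with the quasi-likelihood test. They were 1648, 352, 649 and 1008 with the likelihood ratio test, and 1567, 342, 520 and 1035 with DESeq2.

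The 1 member past an unadjusted p by limma-trend was Alas2, which averaged 12.7 ± 6.76 normalized counts in FT 2 weeks (SD, n = 3) and 3.92 ± 2.22 in HS 2 weeks (SD, n = 2). All FT 2 weeks libraries lay above both HS 2 weeks libraries. The log2 difference was 1.41 ± 0.52 (SE), with a 95% interval of 0.27 to 2.56, an unadjusted p of 0.02 and an adjusted p of 0.961 by limma-trend, so it did not pass. The interval was -0.51 to 2.38 for FT 2 weeks against FT 1 week and -1.78 to 0.51 for HS 2 weeks against HS 1 week. For Igll1 in FT 2 weeks against HS 2 weeks it was -1.89 to 1.57, and for Rhag -0.75 to 0.88. These intervals are on log2 of the normalized counts plus 1. Rhag averaged only 0.529 and 0.435 normalized counts in these groups, and Igll1 0.186 and 0.324. At such values this scale compresses fold changes, so fold differences larger than these limits were not excluded in either direction.

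**Figure D4:**
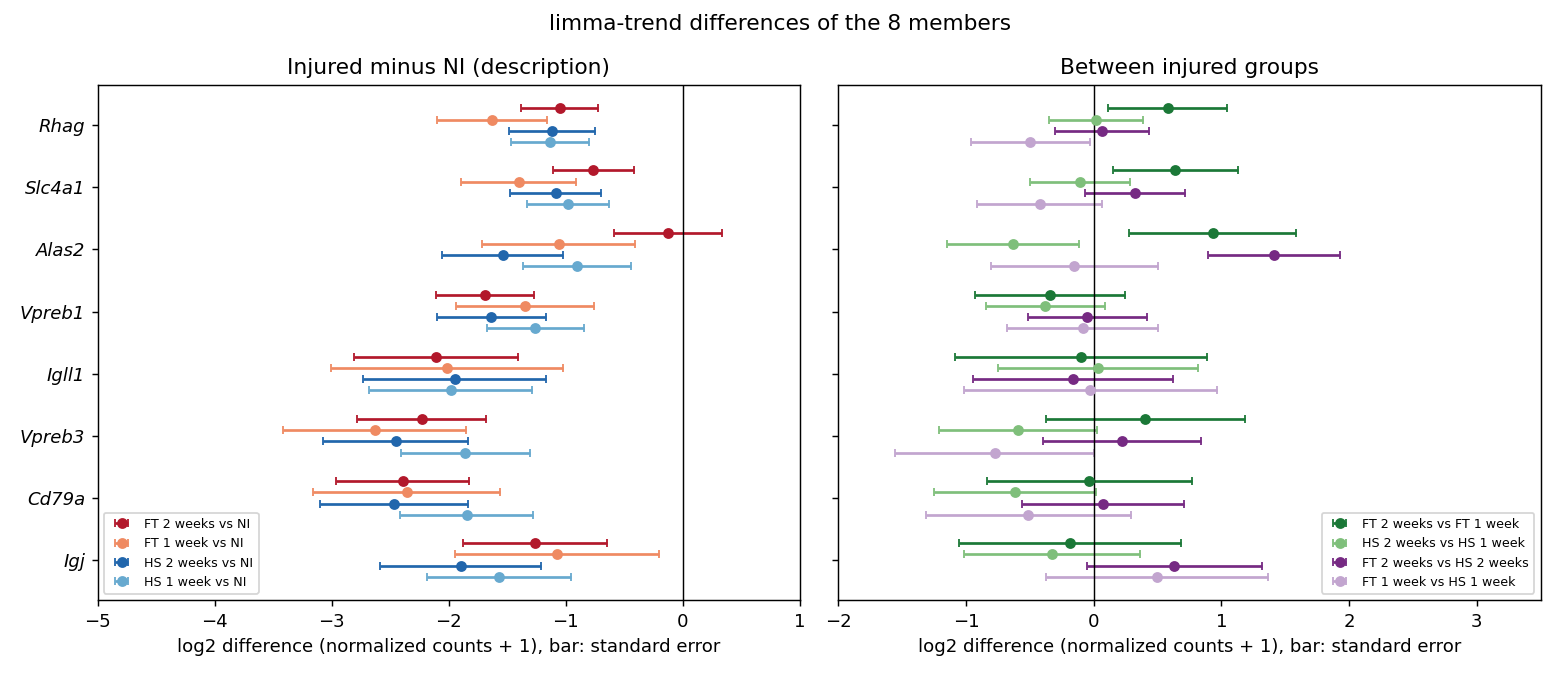
Log2 differences of the 8 members (horizontal axis, on normalized counts plus 1; bars are standard errors) for the 4 injured groups against NI at the left and for 4 comparisons between injured groups at the right. All points against NI lie below 0, nearest to it Alas2 in FT 2 weeks at -0.13, and the largest between injured groups is Alas2 in FT 2 weeks against HS 2 weeks at 1.41.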

How the data were processed

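Sorted Aldh1l1-EGFP cells were sequenced as polyadenylated RNA in 12 libraries of 5 groups, assigned by the labels. Per the submitters' processing notes, the authors used TopHat2 2.0.9 (build mm10, also GRCm38), HTSeq 0.5.4p3 for gene counts and edgeR 3.3.6, in which lowly counted genes were dropped and library sizes were scaled. What they deposited is a signal per gene, the normalized count. Each column was divided into whole reads, and 100% of values were whole within 1e-06.

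Tests used limma-trend (limma 3.58.1, R 4.3.3) on log2 of the value plus 1, in 1 fit of all 12 libraries with a term per group, for the 16388 genes whose mean reached 0.5 in any group. Benjamini-Hochberg adjustment ran over these genes. The FT 1 week library was assumed to vary like the others. Alternatives were a pseudocount of 0.25 or 4, a mean filter of 2 or none, median ratio scaling, edgeR 4.0.16 (quasi-likelihood and likelihood ratio) and DESeq2 1.42.0 on the recovered reads, a replicate block, and each replicate left out. Nothing in the labels says that libraries of a group came from separate animals, so p-values measure the spread between these libraries.

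The members and lists were chosen with earlier results of these data known. Named genes were the 8 members, the 3 most abundant and up to 3 called genes of a list, and the 5 genes most correlated with each member group. Others were chosen after their values were seen. Some list genes are counted in the lists but not reported here by name. Positions are from GENCODE M21 (GRCm38) and promoters from RefSeq; the 9 motifs were all those tried.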

Additional observations from a re-analysis of the deposited data

How the results depend on the processing

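The members stayed below NI in their median under every alternative run, and either change of the filter left it as it was. They had been chosen as lower than NI in these libraries, so this sign is a description and no separate support. The medians were -1.476 in FT 2 weeks, -1.517 in FT 1 week, -1.767 in HS 2 weeks and -1.416 in HS 1 week. In the same order they were -2.381, -2.458, -2.476 and -1.914 with a pseudocount of 0.25, and -0.8083, -0.8081, -1.088 and -0.8572 with a pseudocount of 4. With the edgeR quasi-likelihood test they were -3.119 in FT 2 weeks, -3.656 in FT 1 week, -3.737 in HS 2 weeks and -2.593 in HS 1 week, with the likelihood ratio test -3.11, -3.654, -3.736 and -2.609, and with DESeq2 -3.094, -3.668, -3.738 and -2.607, in the same order. The cause was not tested. Leaving out each replicate gave medians of -2.087 to -1.024 in FT 2 weeks, -1.989 to -1.159 in FT 1 week, -2.377 to -1.207 in HS 2 weeks and -2.026 to -0.9338 in HS 1 week. The erythroid and B lineage genes called with the likelihood ratio test numbered 6 in FT 2 weeks, 2 in FT 1 week and 3 in HS 2 weeks. They numbered 4, 3 and 2 with DESeq2, and outside FT 2 weeks not all were lower. They numbered 0 to 6, 0 to 1, 0 to 2 and, in HS 1 week, 0 to 0 with each replicate left out, the highest without NI replicate 1, where the calls over all genes were 458, 149, 36 and 11; the cause was not tested. Same-numbered libraries did not deviate together consistently (r of -0.48 to 0.72 over 15 pairs, 5 of them above 0.1), so the numbers were not taken as pairs. The highest r, 0.72, was that of HS 1 week replicate 3 with NI replicate 3. Differently numbered libraries were not compared, so whether the numbers carry a pairing was not settled. With a replicate block the medians were -1.476 in FT 2 weeks, -1.504 in HS 2 weeks and -1.416 in HS 1 week, and 0 list genes and 0 members were called, while calls over all genes were 26, 6 and 7, against 7, 2 and 1 without it. With 41 of 96 member and library pairs under 10 reads, the depth limits the precision of many of these comparisons.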
